A study of Homo sapiens with 12 samples.

Results

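The EGF receptor ligands EREG, AREG, EPGN, HBEGF, TGFA, BTC and NRG1 and the ERBB receptors EGFR, ERBB2 and ERBB3 were followed in SZ95 cells, a human sebocyte line from the sebaceous gland. The members were identified by gene symbol: a probe set had to carry exactly 1 of the 10 symbols. Each gene was read from its brightest such probe set on average. Of the 10 genes, 9 were found in this way among the 18417 genes tested, 6 ligands and 3 receptors. AREG was not analysed here. The members and the gene lists below were chosen with earlier results of these data known. Their shares beside those of all genes are therefore a description and not an independent test. Cells were transfected with scramble siRNA or with siRNA against OLR1 and were then either left untreated or given UVPAPC, with 3 arrays in each of the 4 groups. UVPAPC is PAPC, a phosphatidylcholine carrying arachidonic acid, after oxidation by ultraviolet light, and it was used at 25 µg/ml from 24 h after transfection. All cells, controls included, had gone through lipofection, and no vehicle, unoxidised PAPC or untransfected group is used here. Values were log2 signals from Affymetrix arrays, made by the authors with RMA. Nothing in the labels says that the arrays of a group came from separate cultures, so the p-values cover only how far these samples scatter, and that scatter may be technical.

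Ligands of the EGF family are made as membrane-anchored precursors and are released by cell-surface proteases, among them ADAM17 and ADAM10. EGFR binds EREG, AREG, EPGN, HBEGF, TGFA and BTC, ERBB3 and ERBB4 bind neuregulins such as NRG1, and ERBB2, which has no known ligand, pairs with the other receptors. Ligand binding brings the receptors together, and the RAS-ERK and PI3K-AKT cascades follow. In skin these ligands act between neighbouring epithelial cells, and in mice raised epigen levels enlarge the sebaceous glands.

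In RefSeq (GRCh38.p14), EPGN, EREG, AREG and BTC follow each other in this order on chromosome 4, with no other protein-coding gene between them. EPGN and EREG are therefore neighbours, and they moved in opposite directions with UVPAPC and in the same direction with OLR1 siRNA, as described below. The 250 bases before an annotated start of these genes are shown with those of HBEGF and TGFA, the other ligands that changed. Whether these starts are used in SZ95 cells, and whether the changes arose at them, was not tested. Capitals mark matches, on either strand, to TATAAA (the TATA box) or GGGCGG (the GC box, also written CCGCCC on the other strand).
EPGN, chr4:74308220-74308469, plus strand: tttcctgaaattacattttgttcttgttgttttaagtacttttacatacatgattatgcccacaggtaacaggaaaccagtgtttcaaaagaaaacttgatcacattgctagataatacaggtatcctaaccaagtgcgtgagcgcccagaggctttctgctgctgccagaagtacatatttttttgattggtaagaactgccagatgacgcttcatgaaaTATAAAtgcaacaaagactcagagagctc
EREG, chr4:74364895-74365144, plus strand: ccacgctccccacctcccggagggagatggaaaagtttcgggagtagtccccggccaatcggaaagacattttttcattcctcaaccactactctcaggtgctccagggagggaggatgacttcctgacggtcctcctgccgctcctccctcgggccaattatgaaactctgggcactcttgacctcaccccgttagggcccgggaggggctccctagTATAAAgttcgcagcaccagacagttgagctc
HBEGF, chr5:140346604-140346853, minus strand: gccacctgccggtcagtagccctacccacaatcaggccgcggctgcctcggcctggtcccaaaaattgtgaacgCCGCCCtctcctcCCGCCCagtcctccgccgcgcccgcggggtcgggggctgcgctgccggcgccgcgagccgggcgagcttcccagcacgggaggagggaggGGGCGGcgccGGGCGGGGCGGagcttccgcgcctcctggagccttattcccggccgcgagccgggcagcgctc
TGFA, chr2:70553827-70554076, minus strand: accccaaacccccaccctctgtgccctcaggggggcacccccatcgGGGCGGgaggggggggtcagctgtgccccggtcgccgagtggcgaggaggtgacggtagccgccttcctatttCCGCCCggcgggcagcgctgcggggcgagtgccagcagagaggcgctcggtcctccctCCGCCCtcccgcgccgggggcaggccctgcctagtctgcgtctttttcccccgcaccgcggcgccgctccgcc

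The TATA box lay 29 to 24 bases before the start of EPGN and 32 to 27 bases before that of EREG, and 10.7% of 35116 promoter windows of the same length held this word. The EPGN window was 38.0% G and C and the EREG window 58.0%. HBEGF and TGFA had no TATAAA in the window and held 5 and 3 GC boxes, a word found in 42.6% of windows, at a G and C content of 76.4% and 75.6%. TGFA has a second annotated start, whose window (not shown) was 64.0% G and C and held neither word. Neither TGANTCA (AP-1), TGACGTCA (CRE), TGACNNNGC (the core of the antioxidant response element) nor GAANNTTC (a heat shock element), which overlap in part with each other, was found in these 4 windows. These words stood in 6.57%, 1.65%, 10.9% and 5.78% of windows. A match is a description of the letters and not a site of binding. Windows were found for 8 of the 10 genes, and NRG1 and ERBB3 had none. Of the windows not shown, that of ERBB2 and the second of EGFR held TGANTCA. The ERBB2 window also held GAANNTTC, and that of AREG held TGACGTCA.

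OLR1, the siRNA's target and the gene of the scavenger receptor LOX-1, was lower on every array with OLR1 siRNA than on every array with scramble siRNA. The log2 fold change was -1.19 in untreated cells (SE 0.18, limma adjusted p = 0.000484) and -1.40 with UVPAPC (SE 0.18, limma adjusted p = 0.000162). OLR1's mean of 5.1 lay below that of the median gene, and whether its signals under OLR1 siRNA lay above background was not tested. The arrays read RNA and not the LOX-1 protein. Array medians over the tested genes lay between 6.31 and 6.36. Of 17 measured sebocyte and epithelial markers, 12 had a mean signal above that of the median gene, and KRT14, AWAT1, AWAT2, MC5R and ELOVL3 did not. Of the markers of other cell types, 9 of 11 for fibroblasts, 5 of 7 for melanocytes, 8 of 9 for leukocytes and 7 of 8 for endothelium were at or below the median gene, and the mean level of each list stayed within 4.76 to 5.02 on all arrays. The markers above the median gene included CDH5 (mean 8.19), CD68 (9.62) and MITF (8.41). The endothelial marker CDH5 (0.65 and 0.50), the leukocyte marker CD68 (0.40 and 0.44) and the melanocyte marker MITF (0.26 and 0.43) rose with OLR1 siRNA in untreated and in UVPAPC cells, and their part in the results was not tested. Each was the only gene of its list called in either treatment (1 of 8, 1 of 9 and 1 of 7). Of all genes 9.71% and 12.5% were called. Untreated and with UVPAPC, the list medians were -0.066 and -0.038 (endothelial), 0.016 and -0.033 (leukocyte) and 0.0076 and -0.23 (melanocyte). With UVPAPC, under scramble and OLR1 siRNA, the lipid droplet gene PLIN2 rose (0.58 and 0.67) and PPARG, a regulator of lipid synthesis, fell (-0.47 and -0.35). CDH1 (-0.24) and MITF (-0.23) fell under scramble siRNA and MUC1 (-0.34) under OLR1 siRNA. When each array's departure from its group mean was decomposed, on the leading axis, with 26.1% of the variance, the third scramble UVPAPC array (11.27) and the second OLR1 UVPAPC array (9.66) lay at one end and the first OLR1 UVPAPC array (-9.16) and the second scramble UVPAPC array (-7.47) at the other.

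**Figure D1:**
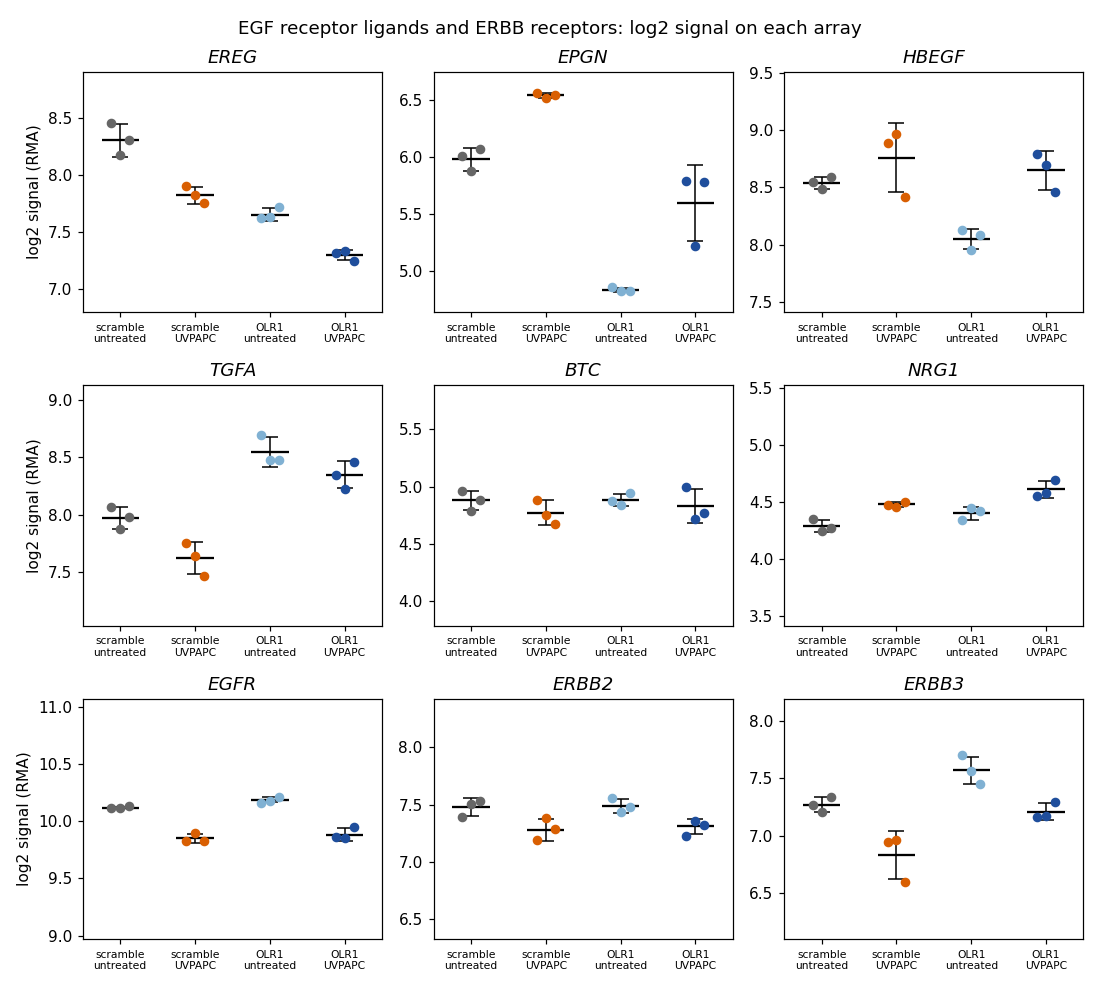
Log2 signal of the 9 members on each of the 12 arrays, by siRNA and treatment; points are arrays, the wide bar is the mean of 3 and the whiskers are 1 SD. The panels share a span of log2 units but not their position. EREG steps down from the scramble untreated to the OLR1 UVPAPC group, EPGN is lowest in OLR1 untreated cells, and BTC overlaps between all groups.

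UVPAPC was compared with no treatment under scramble siRNA to show the response of the ligands and receptors in cells with OLR1 left in place. In this comparison EPGN rose 1.47-fold, EREG fell 1.40-fold, ERBB3 1.36-fold, TGFA 1.28-fold and EGFR 1.21-fold, and HBEGF, BTC, NRG1 and ERBB2 did not pass. Of 6 ligands 1 rose and 2 fell, and of 3 receptors 2 fell. This made 5 of 9 members at a limma adjusted p threshold of 0.05, against 7.31% of all genes (2.67% rose and 4.64% fell). The median log2 fold change was -0.193 for the members and -0.00196 for all genes, and 7 of 9 members had groups that did not overlap, against 24.1% of all genes. Of these, 2 were higher and 5 lower with UVPAPC, against 10.1% and 14% of genes. Under OLR1 siRNA the question was whether the response looked alike with the OLR1 RNA signal reduced. There EPGN rose 1.69-fold, HBEGF 1.51-fold, and EREG fell 1.28-fold, ERBB3 1.29-fold and EGFR 1.23-fold, so that 5 of 9 members passed against 6.71% of all genes (3.46% rose and 3.25% fell). The medians were -0.187 and -0.0134, and 8 of 9 members did not overlap, against 23.7% of all genes. Of these, 3 were higher and 5 lower, against 10.9% and 12.8% of genes.

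OLR1 siRNA was set against scramble siRNA in each treatment to show how these genes differed between cells given either siRNA. Loss of OLR1 and other effects of that siRNA cannot be told apart here. In untreated cells EPGN fell 2.21-fold, EREG 1.57-fold and HBEGF 1.40-fold, and TGFA rose 1.5-fold, while no receptor passed. These were 4 of 9 members, against 9.71% of all genes (5.29% rose and 4.42% fell), and 6 of 9 members did not overlap, against 28.7% of genes. Of these, 3 were higher and 3 lower, against 15% and 13.7% of genes. With UVPAPC on both sides EPGN fell 1.92-fold and EREG 1.44-fold, and TGFA rose 1.66-fold and ERBB3 1.3-fold. These 4 of 9 compare with 12.5% of all genes (7.94% rose and 4.56% fell), and 5 of 9 members did not overlap, against 30.8%, 3 of them higher and 2 lower, against 16.6% and 14.1%. The members' median log2 fold changes were 0.0163 and 0.0307, with -0.00142 and -0.0125 for all genes. The UVPAPC and siRNA comparisons share control arrays, so agreement between them is not counted as a result.

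**Figure D2:**
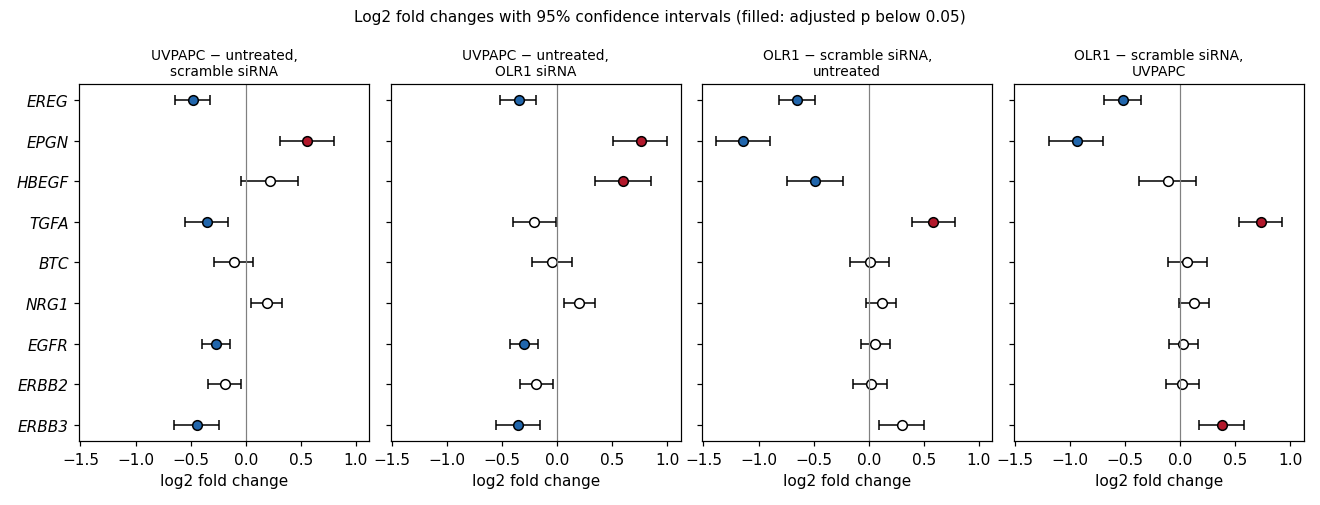
Log2 fold changes of the 9 members (limma, bars are 95% confidence intervals) in the 4 comparisons, first-named group minus the second; filled points passed an adjusted p of 0.05 over all genes, red for a rise and blue for a fall. EREG lies left of 0 in all 4 panels, whereas EPGN is right of 0 with UVPAPC and left of 0 with OLR1 siRNA.

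EREG encodes epiregulin, a ligand of EGFR and ERBB4. With scramble siRNA its log2 signal was 8.45, 8.17 and 8.30 in untreated cells and 7.90, 7.82 and 7.75 with UVPAPC. With OLR1 siRNA it was 7.62, 7.63 and 7.72 untreated and 7.32, 7.33 and 7.25 with UVPAPC. The 4 groups stood in this order with no overlap between neighbours. UVPAPC gave a log2 fold change of -0.48 with scramble siRNA (SE 0.076, 95% CI -0.64 to -0.32, adjusted p = 0.000799) and of -0.35 with OLR1 siRNA (SE 0.076, 95% CI -0.52 to -0.19, adjusted p = 0.00812). OLR1 siRNA gave -0.65 in untreated cells (95% CI -0.81 to -0.49, adjusted p = 4.59e-05) and -0.52 with UVPAPC (95% CI -0.69 to -0.36, adjusted p = 0.000472). All 4 calls were kept in each of the 24 alternative analyses.

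EPGN encodes epigen, a further EGFR ligand, from the neighbouring gene whose window is printed above beside that of EREG. Its log2 signal was 6.01, 5.88 and 6.07 in untreated scramble cells and 6.56, 6.52 and 6.54 with UVPAPC. With OLR1 siRNA it was 4.86, 4.83 and 4.83 untreated and 5.79, 5.22 and 5.78 with UVPAPC. The scramble UVPAPC arrays were highest, then the scramble untreated, OLR1 UVPAPC and OLR1 untreated arrays, with no overlap between neighbouring groups; all 6 arrays with OLR1 siRNA lay below all 6 with scramble siRNA. UVPAPC raised EPGN by 0.56 with scramble siRNA (SE 0.12, 95% CI 0.31 to 0.80, adjusted p = 0.00636) and by 0.76 with OLR1 siRNA (SE 0.12, 95% CI 0.51 to 1.00, adjusted p = 0.000555). OLR1 siRNA gave -1.14 in untreated cells (SE 0.12, 95% CI -1.39 to -0.90, adjusted p = 1.16e-05) and -0.94 with UVPAPC (95% CI -1.19 to -0.70, adjusted p = 9.89e-05). The second OLR1 UVPAPC array was the low one of its group; without it the change with UVPAPC under OLR1 siRNA was 0.95 and that of OLR1 siRNA with UVPAPC was -0.75. EPGN's mean of 5.74 lay below the mean of the median gene, and the table holds no detection calls, so whether its lowest signals lay above background was not tested.

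HBEGF encodes the heparin-binding ligand of EGFR and ERBB4. Its log2 signal was 8.55, 8.49 and 8.59 in untreated scramble cells and 8.89, 8.97 and 8.42 with UVPAPC. With OLR1 siRNA it was 8.13, 7.95 and 8.08 untreated and 8.79, 8.70 and 8.46 with UVPAPC. The OLR1 untreated arrays were below all others, and the other 3 groups overlapped. Under OLR1 siRNA UVPAPC raised it by 0.60 (SE 0.12, 95% CI 0.34 to 0.85, adjusted p = 0.00498). Under scramble siRNA the value was 0.22 (SE 0.12, 95% CI -0.04 to 0.47, adjusted p = 0.348). The third scramble UVPAPC array was below all untreated arrays of its siRNA, and without it the value was 0.39 and passed (adjusted p = 0.0251); with array weights it was 0.32 (adjusted p = 0.0495).

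In untreated cells OLR1 siRNA lowered HBEGF by 0.49 on the log2 scale (log2 fold change -0.49, SE 0.12, adjusted p = 0.016). That call was lost without the third scramble untreated array (-0.46, adjusted p = 0.0643), without the second OLR1 untreated array (-0.44, adjusted p = 0.0722) and with all entries of the table tested (adjusted p = 0.059). With UVPAPC the siRNA comparison of HBEGF gave -0.11 (95% CI -0.37 to 0.14, adjusted p = 0.59).

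TGFA encodes transforming growth factor alpha, a ligand of EGFR. Its log2 signal was 8.07, 7.87 and 7.98 in untreated scramble cells, 7.75, 7.64 and 7.46 with UVPAPC, 8.70, 8.48 and 8.48 in untreated OLR1 siRNA cells and 8.35, 8.22 and 8.46 with UVPAPC. All 6 OLR1 siRNA arrays lay above all 6 scramble arrays, the reverse of EREG and EPGN. OLR1 siRNA raised TGFA by 0.58 in untreated cells (SE 0.092, 95% CI 0.39 to 0.78, adjusted p = 0.000694) and by 0.73 with UVPAPC (95% CI 0.53 to 0.92, adjusted p = 0.000136), and both calls held in each of 24 alternatives.

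With UVPAPC, TGFA fell by 0.35 under scramble siRNA (log2 fold change -0.35, SE 0.092, adjusted p = 0.0261). Under OLR1 siRNA it was -0.21 (95% CI -0.40 to -0.01, adjusted p = 0.232), although the arrays of these 2 groups did not overlap. The call under scramble siRNA held in 17 of 24 alternatives. It was lost without the first scramble untreated array (-0.31, adjusted p = 0.12), the third scramble untreated array (adjusted p = 0.0788), the second scramble UVPAPC array (-0.37, adjusted p = 0.0577) or the third scramble UVPAPC array (-0.28, adjusted p = 0.126).

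BTC, the gene of betacellulin, and NRG1, the neuregulin that binds ERBB3 and ERBB4, passed in no comparison, and both had mean signals below that of the median gene. For BTC the 12 arrays ran from 4.67 to 5.0, all 4 groups overlapped, and its 4 log2 fold changes lay between -0.11 and 0.06 with an SE of 0.084. NRG1 was 4.35, 4.25 and 4.27 in untreated scramble cells and 4.47, 4.46 and 4.50 with UVPAPC, then 4.34, 4.45 and 4.42 in untreated OLR1 siRNA cells and 4.55, 4.58 and 4.69 with UVPAPC. The UVPAPC arrays were above the untreated arrays under either siRNA. The values were 0.19 (95% CI 0.05 to 0.33, adjusted p = 0.0955) and 0.20 (95% CI 0.06 to 0.34, adjusted p = 0.0783). NRG1 had a second probe set. With the mean of both the value under OLR1 siRNA was 0.29 and passed (adjusted p = 0.0113). The value also passed with array weights (0.23) and after cyclic loess (0.22). These were 3 of 23 alternatives, and under scramble siRNA NRG1 passed in 0 of 23. Whether the signals of BTC and NRG1 lay above background was not tested.

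EGFR, the receptor of most of these ligands, had a log2 signal of 10.12, 10.12 and 10.13 in untreated scramble cells and of 9.83, 9.90 and 9.83 with UVPAPC. With OLR1 siRNA it was 10.16, 10.18 and 10.21 untreated and 9.86, 9.85 and 9.95 with UVPAPC. All 6 UVPAPC arrays were below all 6 untreated arrays. The log2 fold change was -0.27 with scramble siRNA (SE 0.061, 95% CI -0.40 to -0.14, adjusted p = 0.0108) and -0.30 with OLR1 siRNA (SE 0.061, 95% CI -0.43 to -0.17, adjusted p = 0.00485). Both calls were lost when 4 arrays were left out together (-0.26, adjusted p = 0.0979, and -0.27, adjusted p = 0.0798). OLR1 siRNA gave 0.06 (95% CI -0.07 to 0.19) in untreated cells and 0.03 (95% CI -0.10 to 0.16) with UVPAPC, neither past the threshold.

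ERBB2, the receptor without a known ligand, had a log2 signal of 7.39, 7.51 and 7.53 in untreated scramble cells and 7.19, 7.38 and 7.29 with UVPAPC. Under OLR1 siRNA the arrays gave 7.56, 7.44 and 7.48 untreated and 7.23, 7.36 and 7.32 with UVPAPC. Its UVPAPC arrays too were below the untreated arrays of the same siRNA, with a log2 fold change of -0.19 in each case (95% CI -0.34 to -0.04 in both), but the adjusted p was 0.134 with scramble and 0.153 with OLR1 siRNA. Array weights took the first past the threshold (-0.23, adjusted p = 0.0392). OLR1 siRNA gave 0.02 in both treatments (95% CI -0.14 to 0.17 untreated and -0.13 to 0.17 with UVPAPC).

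ERBB3, the neuregulin receptor with little kinase activity of its own that recruits PI3K, was 7.27, 7.21 and 7.34 in untreated scramble cells and 6.94, 6.96 and 6.59 with UVPAPC. With OLR1 siRNA it was 7.70, 7.56 and 7.45 untreated and 7.16, 7.17 and 7.29 with UVPAPC. The OLR1 untreated arrays were highest, the scramble UVPAPC arrays lowest, and the remaining 2 groups overlapped between them. With UVPAPC it fell under scramble siRNA (log2 fold change -0.44, SE 0.096, adjusted p = 0.00854) and under OLR1 siRNA (-0.36, SE 0.096, adjusted p = 0.0311). The second of these calls was lost without the first (-0.30, adjusted p = 0.14) or second (-0.37, adjusted p = 0.0781) OLR1 untreated array and without the first (-0.34, adjusted p = 0.105) or second (-0.34, adjusted p = 0.0892) OLR1 UVPAPC array.

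OLR1 siRNA raised ERBB3 with UVPAPC by 0.38 (95% CI 0.17 to 0.58, adjusted p = 0.0168). Without the third scramble UVPAPC array, the lowest of all 12, the value was 0.26 (adjusted p = 0.0751), and without the third OLR1 UVPAPC array it was 0.34 (adjusted p = 0.069). In untreated cells the value was 0.30 (95% CI 0.09 to 0.50, adjusted p = 0.063), and it passed in 9 of 24 alternatives, among them those without the third scramble UVPAPC array (adjusted p = 0.0181) and without the third OLR1 untreated array (0.36, adjusted p = 0.049).

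Whether the UVPAPC response of a member differed between the siRNAs was tested as the difference of both responses, OLR1 siRNA minus scramble siRNA. None of the 9 members passed in limma, and neither did any gene (0% of 18417; 1004 genes, 5.45%, had an unadjusted p below 0.05). HBEGF had the largest difference among the members, 0.38 (95% CI 0.02 to 0.74, unadjusted p = 0.0407, adjusted p = 0.904). It was 0.21 without the third scramble UVPAPC array. The difference of EPGN, 0.20 (95% CI -0.15 to 0.55), became 0.39 without the second OLR1 UVPAPC array (adjusted p = 0.514), 0.10 without the first and 0.11 without the third. The other differences ran from -0.03 for EGFR (95% CI -0.21 to 0.15) to 0.15 for TGFA (95% CI -0.13 to 0.42), with 0.13 for EREG (95% CI -0.10 to 0.36). These intervals leave room for differences of some size in either direction and do not show that the responses were alike.

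**Figure D3:**
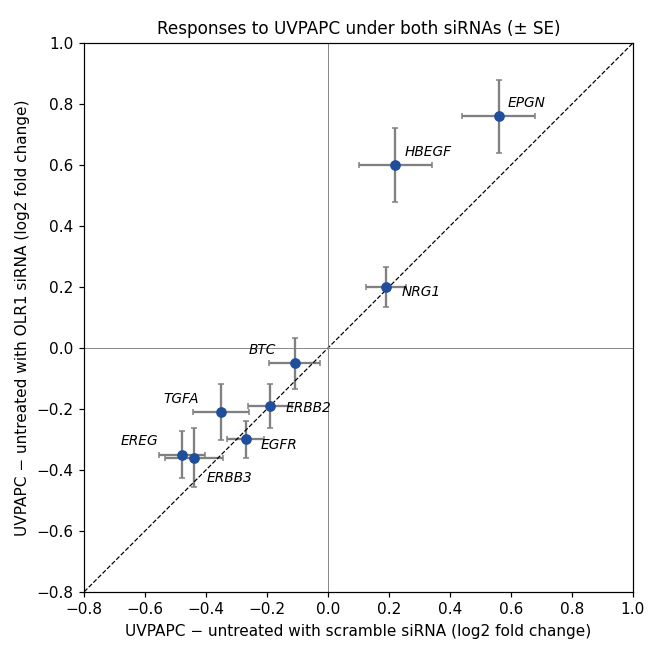
Log2 fold change with UVPAPC under scramble siRNA (x axis) against that under OLR1 siRNA (y axis) for the 9 members, with standard errors; the dashed line marks equal responses. HBEGF, at 0.22 and 0.60, lies farthest above the line, and its difference did not pass over all genes.

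Of the family members outside the 10 genes, EGF, NRG2, NRG3 and ERBB4 passed in no comparison. NRG4, a ligand of ERBB4, rose with UVPAPC. Its log2 signal was 4.43, 4.29 and 4.42 in untreated scramble cells against 5.23, 5.07 and 4.76 with UVPAPC (log2 fold change 0.64, SE 0.11, adjusted p = 0.00187). Under OLR1 siRNA it was 4.16, 4.33 and 4.10 untreated against 5.24, 4.91 and 4.93 with UVPAPC (0.83, SE 0.11, adjusted p = 0.000224). No UVPAPC array of NRG4 was as low as any untreated array. Its mean of 4.66 lay below that of the median gene, so whether its untreated signals lay above background was not tested.

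Ligand release was covered by 14 measured genes of shedding and trafficking. ADAM10, a protease that releases several of these ligands, rose with OLR1 siRNA from 9.35, 9.20 and 9.15 to 9.81, 9.88 and 9.70 in untreated cells (0.57, SE 0.082, adjusted p = 0.000327) and from 9.03, 9.20 and 8.92 to 9.70, 9.63 and 9.67 with UVPAPC (0.61, adjusted p = 0.000217). ADAM12, another member of that protease family, fell by 0.46 untreated (log2 fold change -0.46, adjusted p = 0.000929) and by 0.41 with UVPAPC (-0.41, adjusted p = 0.00227). Its mean of 6.03 lay below that of the median gene, and whether its lowest signals lay above background was not tested. TIMP3, an inhibitor of ADAM17, fell as well (-0.35 and -0.28), but with the mean of its probe sets it was -0.14 (adjusted p = 0.31) and -0.13 (adjusted p = 0.324), and without the first OLR1 UVPAPC array the second value was -0.25 (adjusted p = 0.0535). With OLR1 siRNA 1 rose and 2 fell in each treatment, against 9.71% and 12.5% of all genes called in either direction, and the remaining 11 did not pass. With UVPAPC the 1 rise became 3 with arrays centred on their medians, with trend in eBayes and with the brighter genes alone. ADAM17, the main protease for TGFA, EREG and HBEGF, named after its values were seen, lay between 0.16 and 0.22 in the 4 comparisons, with adjusted p from 0.0833 to 0.289. With UVPAPC 1 gene of 14 passed under each siRNA, near the share of all genes called (7.31% and 6.71%). It was the tetraspanin CD9, which associates with the HBEGF precursor (-0.38, adjusted p = 0.0112, and -0.30, adjusted p = 0.0414). Without the first scramble untreated array it was -0.27 (adjusted p = 0.0579), without the third scramble UVPAPC array -0.35 (adjusted p = 0.0503), and under OLR1 siRNA it passed in 14 of 24 alternatives.

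Among 30 measured adaptors and kinases below the receptors, 3 fell with UVPAPC under scramble siRNA, and under OLR1 siRNA 1 rose and 2 fell, near the 7.31% and 6.71% of all genes called. PIK3R1, the regulatory PI3K subunit, fell in both (-0.48, adjusted p = 0.000848, and -0.45, adjusted p = 0.00149). GAB1, a docking protein of EGFR, gave -0.57 (adjusted p = 0.000716) and -0.40 (adjusted p = 0.0101), with -0.25 and -0.19 for the mean of its probe sets; the last no longer passed (adjusted p = 0.16), nor did the value under OLR1 siRNA without the second OLR1 untreated array (-0.32, adjusted p = 0.0614). With OLR1 siRNA 3 of the 30 rose in each treatment, against 5.29% of all genes untreated and 7.94% with UVPAPC. They included GRB2, the adaptor that links receptors to RAS (0.27 and 0.31), and PTPN11, the phosphatase SHP2 (0.37 and 0.33). In untreated cells 4 fell, against 4.42% of all genes, among them the adaptor SHC1 (-0.33, adjusted p = 0.00646) and the PI3K subunit PIK3CB (-0.35, adjusted p = 0.00906). The 4 falls became 2 without the first or the second scramble untreated array or the third OLR1 untreated array. The 2 falls with UVPAPC under OLR1 siRNA became 4 without the third scramble UVPAPC array and 1 without the second OLR1 untreated array, which took the rises from 1 to 2. Without the third scramble UVPAPC array 1 gene rose with UVPAPC under scramble siRNA and 2 fell with OLR1 siRNA under UVPAPC, where 0 had done so. After repeated quantile normalization both of these counts were 2.

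Of 24 measured inhibitors and turnover genes of the receptors, 1 rose and 2 fell with UVPAPC under scramble siRNA and 1 rose and 1 fell under OLR1 siRNA, near the share of all genes called (7.31% and 6.71%). LRIG3, a transmembrane regulator of the family, rose by 0.44 under scramble siRNA (adjusted p = 0.00123). ERRFI1, the feedback inhibitor MIG6, was 10.74, 10.62 and 10.62 in untreated scramble cells and 10.43, 10.34 and 10.10 with UVPAPC (-0.37, adjusted p = 0.0101; -0.33 and adjusted p = 0.0547 without the first scramble untreated array). Under OLR1 siRNA ERRFI1 was -0.29 (adjusted p = 0.0443) and passed in 11 of 24 alternatives. With OLR1 siRNA 4 of the 24 rose and 1 fell in untreated cells, and 3 rose with UVPAPC, against 9.71% and 12.5% of all genes called; the latter count is at that share. With trend in eBayes, repeated quantile normalization, cyclic loess or the brighter genes alone, 3 fell in untreated cells. The 4 rises became 2 without any 1 of the scramble untreated arrays or without the first or the second OLR1 untreated array. The 3 rises became 0 without the first OLR1 UVPAPC array, and 1 without the third OLR1 UVPAPC array or the third scramble UVPAPC array. The 2 falls with UVPAPC under scramble siRNA became 0 without the first scramble untreated array and 1 without any 1 of 8 other arrays.

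ERK output and feedback genes can be transcribed when the cascade below the receptors is active. Whether ERK activity itself changed in these cells was not tested. Of 25 measured, 10 fell with UVPAPC under scramble siRNA and 9 under OLR1 siRNA, against 4.64% and 3.25% of all genes. In neither did a gene rise (0 of 25), and 8 genes were in both sets. How many of all genes fell under both siRNAs was not counted, so this overlap is not read as a trait of the list. The medians were -0.21 and -0.10, against -0.0020 and -0.013 for all genes, and leaving out single arrays gave 10 to 11 and 9 falls, with 0 to 1 rises. JUNB (-0.75 and -0.64), EGR1 (-0.61 and -0.56), the cyclin CCND1 (-0.60 and -0.47) and PHLDA1 (-0.54 and -0.68) fell under both siRNAs. DUSP6, the ERK phosphatase, fell under scramble siRNA (-0.54, adjusted p = 0.000528).

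With OLR1 siRNA 6 ERK genes fell and 1 rose in untreated cells, against 4.42% and 5.29% of all genes. With UVPAPC 6 fell and 3 rose, against 4.56% and 7.94%, so that the rises were near the share of all genes. PHLDA1 led both, from 9.03, 8.92 and 9.07 to 8.34, 8.26 and 8.45 untreated (-0.66, SE 0.073, adjusted p = 2.52e-05) and from 8.45, 8.55 and 8.38 to 7.62, 7.67 and 7.70 with UVPAPC (-0.80, adjusted p = 5.76e-06). By their means its 4 groups ran in the order seen for EREG, with scramble untreated arrays highest and OLR1 UVPAPC arrays lowest. Unlike those of EREG, the scramble UVPAPC and OLR1 untreated arrays overlapped. DUSP6 fell in untreated cells (-0.56, adjusted p = 0.000353), and IER3 in both treatments (-0.33 and -0.35). The rise of 1 gene, ETV5 (0.41, adjusted p = 0.00846), became 0.31 (adjusted p = 0.0503) without the second scramble untreated array, and the 6 falls with UVPAPC became 3 without the first scramble UVPAPC array. The 3 rises with UVPAPC became 1 without the first scramble UVPAPC array, the third scramble UVPAPC array, the first OLR1 UVPAPC array or the second OLR1 UVPAPC array.

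**Figure D4:**
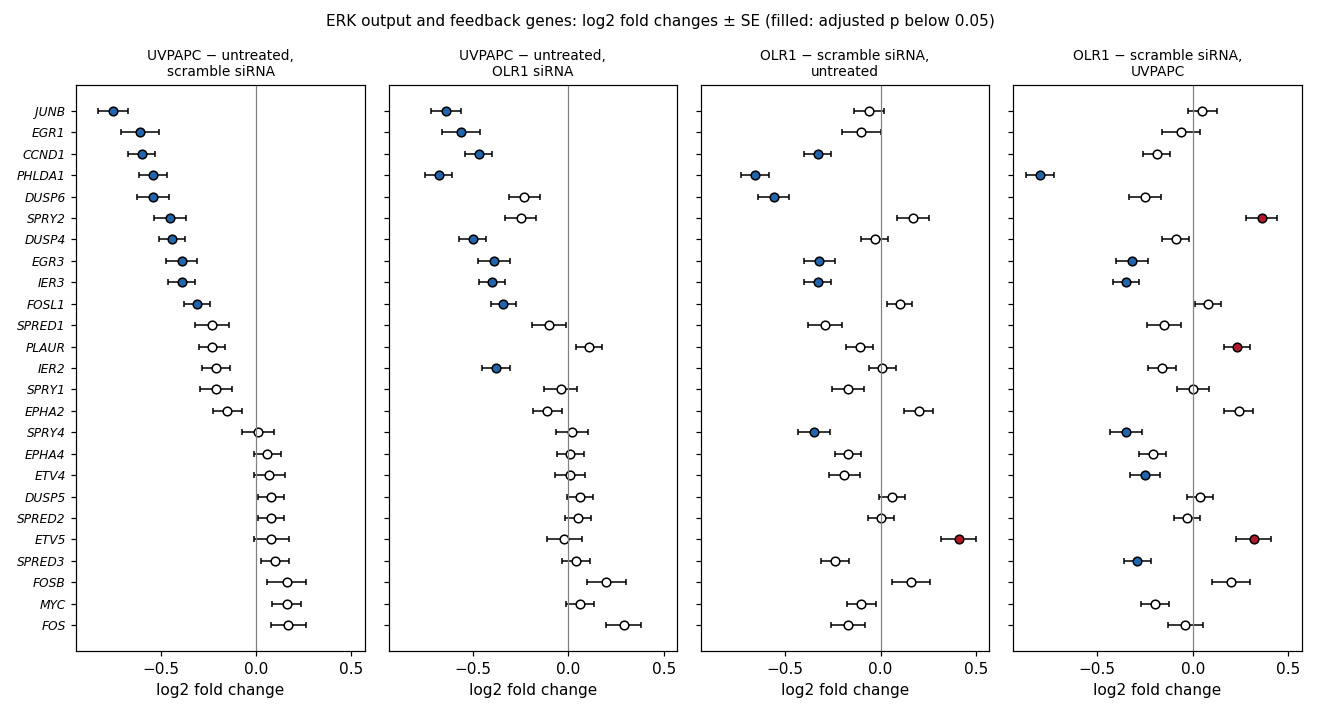
Log2 fold changes (± SE) of the 25 measured ERK output and feedback genes in the 4 comparisons, ordered by the first; filled points passed an adjusted p of 0.05, red for a rise and blue for a fall. In the UVPAPC panels 10 and 9 genes fell, and PHLDA1, at -0.66 and -0.80, is the lowest point of the siRNA panels.

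HSP90 and its co-chaperones hold ERBB2 in a stable form. Of 9 measured, with UVPAPC 6 rose under either siRNA, among them HSP90AA1 (0.59 and 0.65) and FKBP4 (0.48 and 0.57), and 3 did not pass. Of all genes 2.67% and 3.46% rose. The medians were 0.27 and 0.42. Without 1 array the first count lay between 4 and 6. Under scramble siRNA HSP90AB1 passed in 19 and HSPA8 in 17 of 24 alternatives. With OLR1 siRNA 1 of the 9 rose and 1 fell in each treatment, against 9.71% and 12.5% of all genes called in either direction. PTGES3 rose (0.32 untreated and 0.34 with UVPAPC) and FKBP4 fell (-0.35 and -0.27). The fall of FKBP4 with UVPAPC on both sides passed in 18 of 24 alternatives.

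The genes whose log2 signal over the 12 arrays was most like that of a member were found by Pearson's r, as a description with no test, since group differences and arrays are shared. For EREG they were ANTXR2 (0.984), ZNF365 (0.980) and SYT14 (0.977), and for EPGN STC2 (0.979), DNAJB6 (0.976) and CAMK2D (0.976). TGFA was closest to CDK2 (0.979), EGFR to CCN1 (0.976), ERBB3 to the cadherin gene CDH1 (0.988), HBEGF to CYP51A1 (0.954), NRG1 to HSPE1 (0.954), ERBB2 to IGF1R (0.934) and BTC to TAPT1 (0.864).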

How the data were processed

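RNA of 12 samples was read on Affymetrix arrays. The deposited values are log2 signals. The submitters' processing notes name Affymetrix Expression Console 1.3.1.187 and RMA, a method that can compress large fold changes. Settings of RMA and a genome build were not given in the sources used here. Of 33297 entries, 19460 carried 1 gene symbol, 1754 several and 12083 none, in an annotation that can be old; 19429 matched a current symbol by Entrez number and 0 were changed. The probe set with the highest mean stood for each of 18417 genes.

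In R 4.3.3, limma 3.58.1 estimated 1 mean per group from the 12 arrays together (8 residual degrees of freedom, default eBayes), and its two-sided p-values were adjusted by Benjamini-Hochberg over the genes of each comparison, with 0.05 as the threshold. The fit was tested on simulated data. Genes named were OLR1, the 10 members, list genes past the threshold, up to the 5 largest per list and comparison, and the 3 genes most like each member. ADAM17, list members given as not past the threshold, cell type markers and the neighbours on chromosome 4 fall outside this rule. The members and lists were chosen with earlier results of these data known. Alternatives were trend or robust eBayes, array weights, genes with a mean above that of the median gene, averaged probe sets, all table entries, centred arrays, repeated quantile normalization, cyclic loess, the compared arrays alone, a replicate block and each array left out. Leaving out 4 arrays together was chosen after seeing the data. The number of arrays limits the precision. Promoter sequences came from RefSeq. Figures used matplotlib 3.10.9 in Python 3.11.15.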

Additional observations from a re-analysis of the deposited data

How the results depend on the processing

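Over 1170 repeats of a member's or OLR1's log2 fold change under an alternative, 1134 stayed on their side of the threshold, 21 lost and 15 gained a call, and 0 called values changed sign. With the replicate number as a block the counts of genes called were 1309, 1220, 1756, 2309 and 0 (1347, 1236, 1789, 2302 and 0 without) and no member's call changed. The deviations of same-numbered arrays correlated above 0.1 in 6 of 18 pairs, with a range from -0.221 to 0.263. Pairs with different numbers ran from -0.26 to 0.266. Such correlations cannot decide whether same-numbered arrays shared a culture or a batch, since deviations are taken from means of only 3 arrays. Leaving out each array in turn gave, for UVPAPC under scramble siRNA, 868 to 1340 genes and 4 to 5 members, and under OLR1 siRNA 865 to 1397 and 4 to 5. For OLR1 siRNA it gave 1101 to 2055 genes and 3 to 5 members in untreated cells, and 1267 to 2254 and 3 to 4 with UVPAPC; the difference of responses stayed at 0. Leaving out 4 arrays together gave 752 genes and 3 members for UVPAPC under scramble siRNA, and 1091 and 1161 genes for OLR1 siRNA untreated and with UVPAPC; fewer samples enter that fit.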

Other observations

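The protein-coding genes on either side of the EPGN to BTC cluster on chromosome 4, chosen by position after the values of EPGN and EREG were known, passed in no comparison. MTHFD2L, CXCL2 and CXCL3 before EPGN had log2 fold changes of -0.02, -0.04 and -0.15 in untreated cells, and PARM1, RCHY1 and THAP6 after BTC had -0.17, -0.01 and 0.13, with limma adjusted p from 0.189 to 0.938. BTC, the far member of the cluster, was at 0.01 (adjusted p = 0.983). With UVPAPC under scramble siRNA MTHFD2L, the mitochondrial folate enzyme next to EPGN, was at 0.29 (adjusted p = 0.148) and under OLR1 siRNA at 0.36 (adjusted p = 0.0711), neither past the threshold. With OLR1 siRNA under UVPAPC the value nearest to the threshold was that of PARM1 (-0.23, adjusted p = 0.055), and the others lay between -0.17 for CXCL3 and 0.15 for RCHY1. A p that misses the threshold does not show that these neighbours did not change.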
